A study of Mus musculus with 8 samples.

Results

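The 10 genes described here, Atf4, Atf3, Ddit3, Trib3, Chac1, Asns, Psat1, Phgdh, Sesn2 and Slc7a11, belong to the amino acid stress response that runs through the transcription factor ATF4. They were chosen by name for this known role, with earlier results of these data known, and are 10 of the 22609 gene symbols in the deposited count tables. All 10 were found in every library, and all 10 passed the filter on low counts.

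The RNA came from immortalized mouse dental papilla cells, the mesenchymal cells of the tooth germ from which odontoblasts arise. The iBmp2fx/fx cells (Fx) carry floxed Bmp2 alleles, and the iBmp2ko/ko cells (Ko) are the Bmp2 knock-out line, so that immortalization is shared by both groups. Total RNA was sequenced from each genotype after 6, 24, 48 and 72 h of culture, with 1 library per genotype and time and 8 libraries in all. No added agent is named for these cultures, and whether each line is a single clone, and how the alleles were recombined, is not given in the sources used here. Each genotype therefore rests on 1 cell line, the culture times stand in for replicates, and a p-value measures only the spread between these libraries.

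ATF4 is made mainly by control of translation. When a kinase such as GCN2 (uncharged tRNA) or PERK (misfolded protein in the endoplasmic reticulum) phosphorylates eIF2alpha, most translation falls while the Atf4 message is translated more, so that the Atf4 mRNA level alone does not report ATF4 activity. The protein then binds C/EBP-ATF response elements and activates genes for amino acid synthesis, amino acid import and feedback on the pathway. In mineralizing cells ATF4 is known as a factor of osteoblast differentiation and collagen synthesis.

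The promoters were read first, because ATF4 is known to bind C/EBP-ATF elements, some of which lie close to the start of its target genes. In the 250 bases before the RefSeq transcription start, TGATGNAA was searched on both strands. It was found in 1134 of 32851 promoters, or 3.45%, and in those of 4 of the 10 genes, Atf3, Chac1, Asns and Slc7a11. Their sequences follow, 5′ to 3′ on the strand of the gene, with the match in capitals, from the RefSeq GRCm38.p6 promoter table and placed on mm9 by exact match.
Atf3, chr1:193007220-193007412, minus strand: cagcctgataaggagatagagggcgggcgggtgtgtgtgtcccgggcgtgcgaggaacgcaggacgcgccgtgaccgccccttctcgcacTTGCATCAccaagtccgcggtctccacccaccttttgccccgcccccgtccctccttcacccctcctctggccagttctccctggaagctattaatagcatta
Chac1, chr2:119176778-119176964, plus strand: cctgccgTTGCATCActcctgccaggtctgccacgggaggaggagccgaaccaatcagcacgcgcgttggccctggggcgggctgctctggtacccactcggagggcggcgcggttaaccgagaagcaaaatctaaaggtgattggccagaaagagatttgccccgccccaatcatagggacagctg
Asns, chr6:7643214-7643243, minus strand: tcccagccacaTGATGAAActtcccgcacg
Slc7a11, chr3:50247536-50247735, minus strand: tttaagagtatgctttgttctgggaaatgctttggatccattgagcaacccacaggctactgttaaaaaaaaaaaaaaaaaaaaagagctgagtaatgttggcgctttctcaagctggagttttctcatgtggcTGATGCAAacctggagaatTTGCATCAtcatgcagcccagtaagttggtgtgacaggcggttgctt

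The match began 110 bases before the start in Atf3, 193 bases before it in Chac1 and 23 bases before it in Asns, whose printed stretch falls inside the gene as GENCODE M1 draws it. Slc7a11 held 2 matches, which began 66 and 47 bases before the start on opposite strands. The antioxidant response element TGACNNNGC, bound by NRF2, was present in 10.2% of promoters and in those of Asns, Phgdh and Sesn2. The cyclic AMP response element TGACGTCA was present in 1.55% of promoters and in none of the 10 genes. A match describes letters in this window and is not a measured binding site. For Atf4, Ddit3, Trib3 and Psat1 it says only that none of these letters stood within the window.

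**Figure D1:**
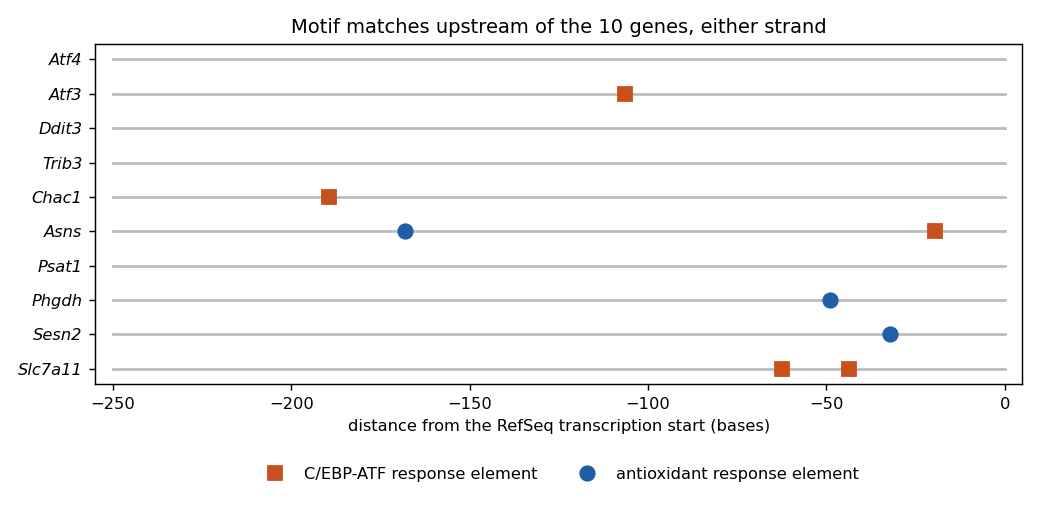
Matches to the C/EBP-ATF element and the antioxidant element in the 250 bases before the RefSeq start of each gene; the horizontal axis is the distance from the start in bases, and each marker is 1 match on either strand. Of the 10 genes, 4 held the C/EBP-ATF element and Slc7a11 held it at 2 positions.

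On mm9 the genes lie apart from each other. The transcription factors are Atf4 (chr15:80085614-80087970, plus strand), Atf3 (chr1:192994175-193007219, minus strand) and Ddit3 (chr10:126727830-126733344, plus strand). Trib3 (chr2:152163158-152169768, minus strand), Chac1 (chr2:119176965-119180117, plus strand) and Sesn2 (chr4:132047947-132066416, minus strand) code for the feedback and stress proteins. The metabolic genes are Asns (chr6:7625169-7643254, minus strand), Psat1 (chr19:15979168-16021827, minus strand) and Phgdh (chr3:98117093-98143913, minus strand), and the transporter gene is Slc7a11 (chr3:50168858-50247535, minus strand). The values are read counts over the whole gene. Of the 1713 exonic bases of Ddit3, 81 are shared with genes on the opposite strand, 68 of them with Mars, and no shared exonic base was found for the other 9 genes. Because the strand setting of the counting is not given in the sources used here, reads from those 81 bases cannot be assigned to Ddit3 or its partners.

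Each library held 25890110 to 32415665 reads counted on genes, with a median of 29985177, so that 3 counts amount to between 0.0925 and 0.116 CPM (counting error only). Between 41.3% and 49.6% of alignments were set aside as not unique. Bmp2 had no read in 7 libraries and 1 read in the other, so that it was undetected in Fx and Ko alike and cannot check the genotype labels. Of 12 dental mesenchyme markers, 11 exceeded 1 CPM in every library, Barx1 being the exception at no more than 3 counts. None of 6 odontoblast markers did, and Dspp, the major dentin protein gene, stayed at no more than 3 counts. None of 7 epithelial markers or 4 endothelial markers exceeded 1 CPM in every library, and of 5 leukocyte markers only Cd68 did. Over all 8 libraries, the summed mesenchyme markers ranged from 7054 to 8708 CPM in Fx and from 8130 to 13006 CPM in Ko, and the odontoblast markers from 1.92 to 5.30 CPM in Fx and from 1.23 to 2.33 CPM in Ko. The endothelial markers summed to 1.93 to 3.32 CPM in Fx and 1.61 to 3.63 CPM in Ko. The summed epithelial markers ranged from 0.745 to 2.20 CPM in Fx and from 0.289 to 1.88 CPM in Ko, and the leukocyte markers from 4.28 to 14.3 CPM in Fx and from 2.81 to 6.12 CPM in Ko. The part of these marked cell types in the results was not tested.

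The library labelled Ko 24 h was unusually close to Fx 6 h. It is shown apart, and each fit or profile that includes it is named as one over all 8 libraries. Over 9639 genes with a mean of at least 10 CPM, its median absolute log2 difference from the Fx 6 h library was 0.0578. The 27 other pairs of libraries differed by between 0.142 and 0.532, and the library labelled Ko 24 h differed from the other Ko libraries by between 0.235 and 0.413, while those differed from each other by between 0.303 and 0.475. All 10 genes were within 0.1 log2 units of their Fx 6 h level in it, and for 7 of them Fx 6 h was the nearest library. The widest gap was that of Slc7a11, 0.10 log2 units, and the next were those of Ddit3, at -0.09, and Atf3, at 0.06. Whether that library holds Ko cells of 24 h was not tested, and the main comparison uses the 6 libraries of 6, 48 and 72 h.

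**Figure D2:**
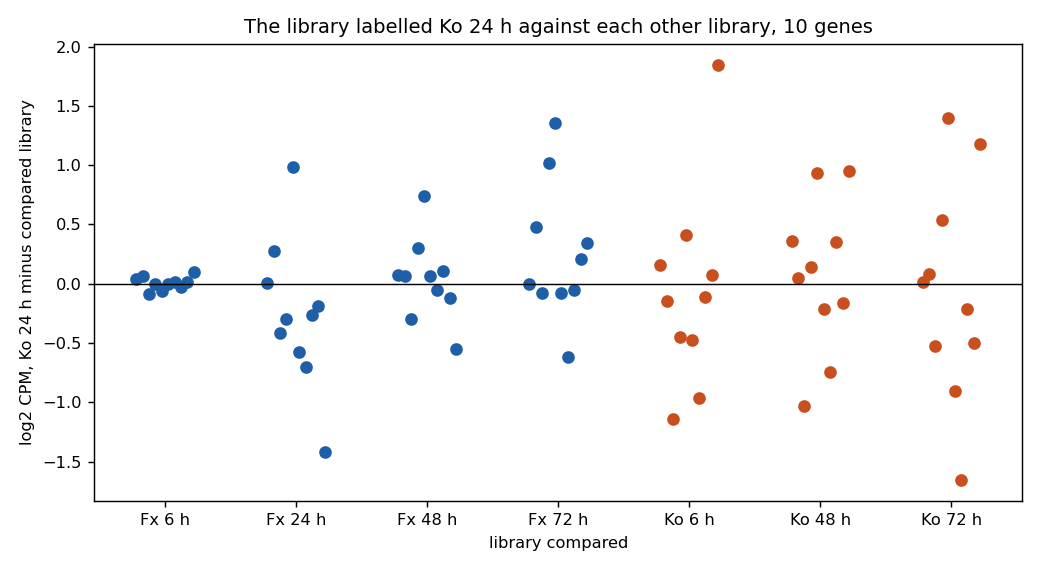
Log2 CPM of the library labelled Ko 24 h minus that of each other library, 1 point per gene for the 10 genes; Fx libraries are blue and Ko libraries are orange. Against Fx 6 h all 10 points lie within 0.1 of 0, whereas against each of the other libraries the points spread more widely.

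Levels are given as CPM, a read count scaled to the same library size in all libraries, with library sizes adjusted by TMM. To compare genes with each other, the levels were also divided by exonic length (RPKM). On that scale the mean level in Fx was highest for Atf4, at 569 RPKM. Psat1 and Asns followed at 78.5 ± 19.7 and 77.7 ± 3.72 RPKM (SD, n = 3), and these neighbours lie within their spread. Phgdh, Chac1, Ddit3 and Trib3 lay between 31.0 and 42.6 RPKM. Sesn2 was at 18.0, Slc7a11 at 11.1 and Atf3 at 8.75 RPKM, the last pair being within the spread of Slc7a11 (SD 3.72, n = 3). In Ko the highest mean was again Atf4, at 517 RPKM, while Psat1 reached 149 RPKM, and Slc7a11, at 4.29 ± 1.28 RPKM, had the lowest mean of the 10 genes.

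**Figure D3:**
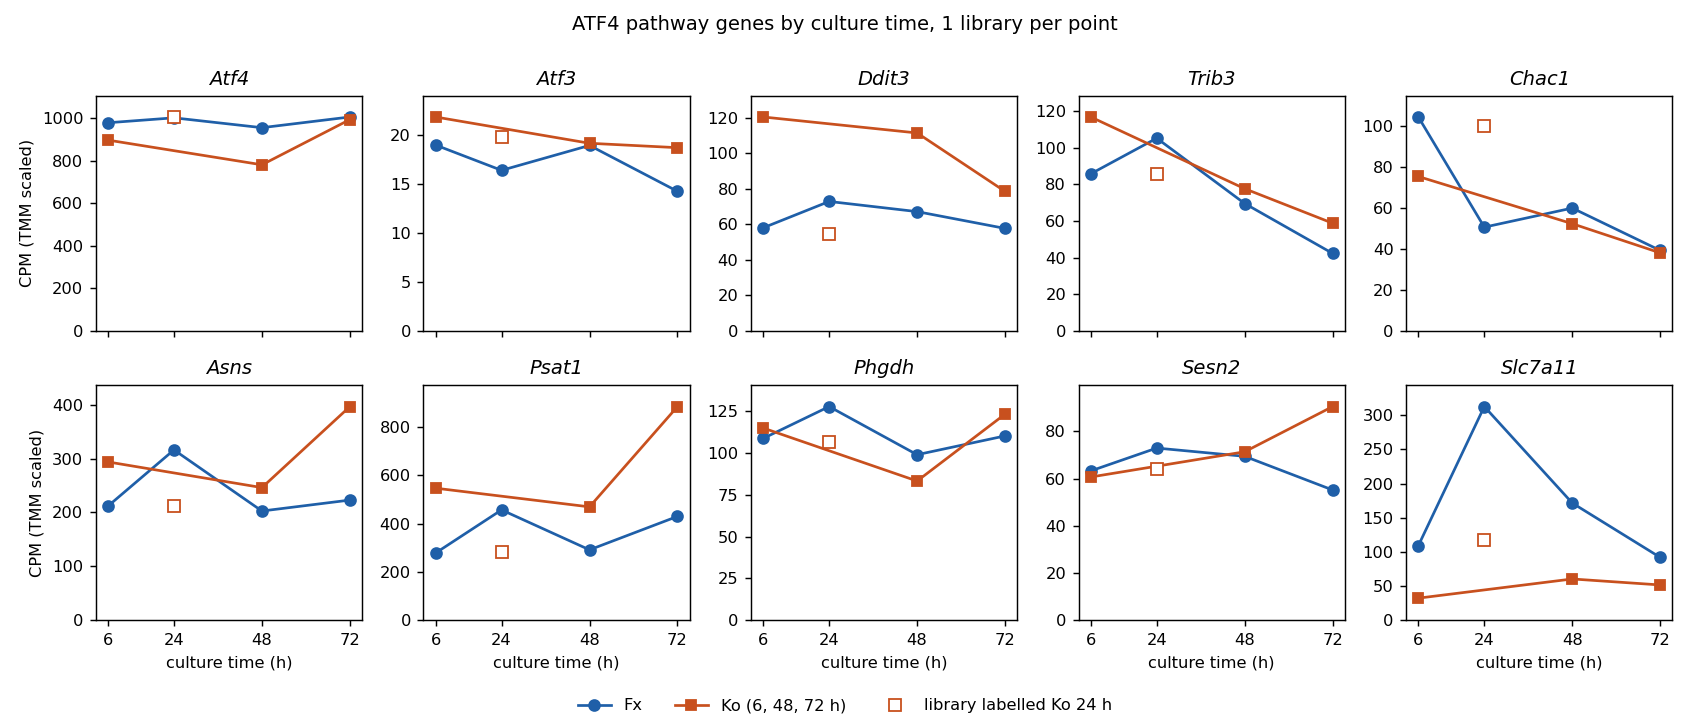
Level of each gene in CPM (vertical axes, from 0) against culture time in hours; blue circles are Fx, orange squares are Ko at 6, 48 and 72 h, and the open square is the library labelled Ko 24 h, 1 library per point. Ko lies above Fx at 6, 48 and 72 h for Ddit3, Asns and Psat1 and below it for Slc7a11.

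Between the genotypes, Ddit3, Asns and Psat1 were higher and Slc7a11 was lower in Ko, and in these 4 genes the 3 Ko and 3 Fx libraries did not overlap. Over all genes tested, 20.0% did not overlap in this way. With genotype as the only term, the quasi-likelihood test of edgeR, adjusted by Benjamini-Hochberg, called 0 of the 10 genes at an adjusted p of at most 0.05, where 2.22% of 13121 genes were called, 0.915% higher and 1.30% lower. The same 4 genes had an unadjusted p under 0.05 in that test, where 14.0% of all genes did. DESeq2 called 2 of the 10, Ddit3 and Slc7a11, where it called 6.65% of all genes. With culture time as a block, 4 of the 10 were called, 3 higher and 1 lower, where 22.7% of all genes were called, 11.3% higher and 11.4% lower. At the limit in the study's methods (absolute log2 fold change above 1, unadjusted p under 0.05), 1 of the 10 genes passed, Slc7a11, where 7.35% of all genes did. The median log2 fold change was 0.21 over the 10 genes and 0.03 over all genes. With the Fx 24 h library added, Asns overlapped between the groups, at 316.0 CPM in that library against 246.1 CPM in Ko at 48 h. Over these 7 libraries edgeR without a block called 0 of the 10 genes, where it called 483 of 13208 genes. The log2 differences were then 0.69 for Ddit3, 0.37 for Asns, 0.78 for Psat1 and -1.84 for Slc7a11. In bulk RNA, fewer cells of a type and less RNA per cell cannot be told apart.

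Atf4 itself was abundant and even. In Fx it was 979.8, 956.6 and 1007 CPM at 6, 48 and 72 h, and in Ko 898.1, 781.8 and 994.9 CPM. The highest of all 8 values was 1.29 times the lowest, and although each Ko value lay below the Fx value of its time, the groups overlapped. The means were 981 ± 25.4 CPM in Fx and 892 ± 107 CPM in Ko (SD, n = 3), a log2 difference of -0.15 (SE 0.19, edgeR adjusted p = 0.807) that was -0.06 without the Ko 48 h library and -0.23 without the Ko 72 h library.

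Atf3, a factor of the same bZIP family that is induced by ATF4 and by other stress signals, was the least abundant per length in Fx. Its levels were 18.9, 18.9 and 14.2 CPM in Fx and 21.8, 19.1 and 18.7 CPM in Ko. Ko was above Fx at each of the 3 times, at 48 h by 1.01 times, and the groups overlapped (log2 difference 0.19, SE 0.21, edgeR adjusted p = 0.763). Without the Fx 72 h library the difference was 0.07.

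Ddit3 codes for CHOP, a C/EBP family factor that ATF4 induces and that takes part in stress-linked cell death. It was at 58.0, 67.1 and 57.6 CPM in Fx at 6, 48 and 72 h. In Ko it was at 120.4, 111.4 and 78.5 CPM, so that the lowest of these Ko libraries stood above the highest of these Fx libraries. The Ko level was 2.08 times the Fx level at 6 h, 1.66 times at 48 h and 1.36 times at 72 h. This was a log2 difference of 0.77 (SE 0.22), with an edgeR adjusted p of 0.164. Without the Ko 72 h library it was 0.92 with an adjusted p of 0.0468, and with culture time as a block it was 0.74 (SE 0.14) with an adjusted p of 0.0112.

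Among the feedback and stress proteins no gene passed either test of genotype. Trib3, a pseudokinase that binds ATF4 and CHOP and limits their activity, was at 85.8, 69.6 and 42.3 CPM in Fx and at 116.9, 77.7 and 58.8 CPM in Ko. The Ko value was the higher at all 3 times, by 1.36, 1.12 and 1.39 times, but the ranges overlapped because both genotypes were lower at later times. Its log2 difference was 0.37 (SE 0.35, edgeR adjusted p = 0.727), and with culture time as a block 0.36 (SE 0.11, adjusted p = 0.0510). Without the block it was 0.049 when the Ko 6 h library was left out, 0.13 without Fx 72 h and 0.58 without Fx 6 h.

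Chac1, which codes for an enzyme that cleaves glutathione, differed in sign from Trib3. It was at 104.5, 60.0 and 39.3 CPM in Fx and at 75.4, 52.3 and 38.1 CPM in Ko, and the genotypes nearly met at 72 h. Its log2 difference from Fx was -0.29 (SE 0.41, edgeR adjusted p = 0.825). In the fit without a block it was 0.14 when the Fx 6 h library was left out. Within each of the 3 times Ko was the lower, and with culture time as a block the difference was -0.24 (SE 0.11, adjusted p = 0.161).

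Sesn2, which codes for a leucine-binding protein that holds back mTORC1, was at 63.2, 69.4 and 55.2 CPM in Fx and at 60.6, 71.3 and 90.5 CPM in Ko. The genotypes lay close at 6 and 48 h, and at 72 h the Ko value was 1.64 times the Fx value. Over the 3 times the log2 difference came to 0.23 (SE 0.19, edgeR adjusted p = 0.665), and without the Ko 72 h library to 0.07.

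Of the amino acid synthesis genes, Psat1 and Asns were higher in Ko at 6, 48 and 72 h, and Phgdh was not higher at 48 h. None of them was called without a block, and the difference between these genes was not tested. Psat1, the aminotransferase of the serine pathway, was at 278.8, 292.0 and 430.5 CPM in Fx and at 547.3, 469.9 and 885.1 CPM in Ko. Among the 6 libraries of 6, 48 and 72 h, every Ko library exceeded every Fx library. The Ko level was 1.96, 1.61 and 2.06 times the Fx level at those times. The means were 334 ± 84.0 CPM in Fx and 634 ± 221 CPM in Ko (SD, n = 3). The log2 difference was 0.91 (SE 0.30, edgeR adjusted p = 0.233), and with culture time as a block it was 0.90 (SE 0.11, adjusted p = 0.00223). Without the Ko 72 h library it was 0.60 (adjusted p = 0.295).

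Asns, the glutamine-dependent asparagine synthetase, was at 211.9, 202.7 and 223.0 CPM in Fx and at 293.7, 246.1 and 396.3 CPM in Ko. The Fx values were close to each other, and all 3 Ko values stood above them, by 1.39, 1.21 and 1.78 times. The log2 difference was 0.54 (SE 0.21, edgeR adjusted p = 0.308), and with culture time as a block it was 0.52 (SE 0.12, adjusted p = 0.0205). Without the Ko 72 h library it was 0.34 (adjusted p = 0.422). Over 7 libraries, all but the one labelled Ko 24 h, it was 0.37 without a block (SE 0.23, edgeR adjusted p = 0.423).

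Phgdh, the dehydrogenase that opens the serine pathway one step before Psat1, was at 108.5, 98.8 and 110.0 CPM in Fx. In Ko it was at 114.7, 83.1 and 123.0 CPM. Ko was higher at 6 and 72 h and lower at 48 h, and the Fx values lay inside the Ko range. The log2 difference was 0.01 (SE 0.19, edgeR adjusted p = 0.993), and its sign was negative with culture time as a block.

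Slc7a11 had the widest range of the 10 genes as a ratio, its highest value being 9.62 times its lowest over all 8 libraries. It codes for xCT, the cystine-glutamate exchanger of the plasma membrane, which supplies cysteine for glutathione and is induced by ATF4 and by NRF2. In Fx it was at 109.2, 171.5 and 92.0 CPM at 6, 48 and 72 h, and in Ko at 32.5, 60.5 and 51.8 CPM. In the 6 libraries of those times, every Fx library exceeded every Ko library. The Fx level was 3.36 times the Ko level at 6 h, 2.83 times at 48 h and 1.78 times at 72 h. The means were 124 ± 41.8 CPM in Fx and 48.3 ± 14.4 CPM in Ko (SD, n = 3). Ko thus differed by -1.37 on the log2 scale (SE 0.31), with an edgeR adjusted p of 0.0893 in the test without a block. With culture time as a block it was -1.37 (SE 0.16, adjusted p = 0.00157), and DESeq2 gave an adjusted p of 0.00275. The block over all 8 libraries, which counts the library labelled Ko 24 h as Ko, called 1 of the 10 genes, Slc7a11, where 0.306% of all genes were called (log2 difference -1.38, SE 0.16, edgeR adjusted p = 0.0427). In that fit Ddit3 was at 0.46 (adjusted p = 0.264), Asns at 0.25 (adjusted p = 0.503) and Psat1 at 0.51 (adjusted p = 0.319), none of which was called. Slc7a11 in the library labelled Ko 24 h was at 116.9 CPM, close to the 109.2 CPM of Fx 6 h. Its Fx level was itself 2.86 times as high at 24 h as at 6 h. The part of this in the 8-library call was not tested.

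**Figure D4:**
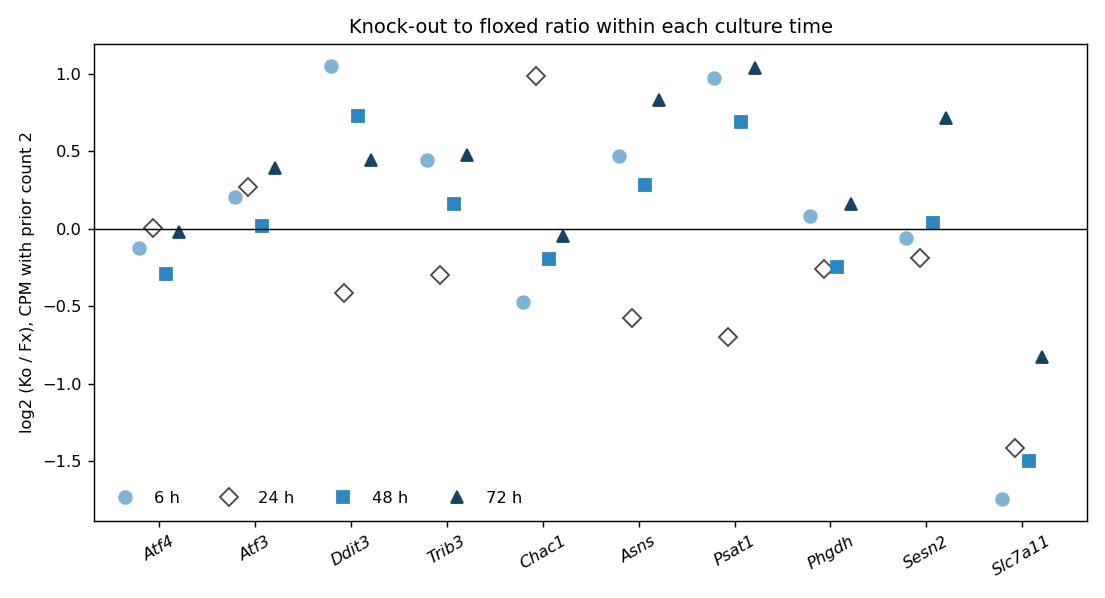
Log2 ratio of Ko to Fx within each culture time for the 10 genes (vertical axis, prior count of 2); filled symbols are 6, 48 and 72 h, and open diamonds are 24 h, where the Ko side is the library shown apart. Slc7a11 is below 0 at all 4 times, while Ddit3, Asns and Psat1 are above 0 at 6, 48 and 72 h and below it at 24 h.

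At 24 h, shown apart, the Fx library and the library labelled Ko 24 h gave another picture. Slc7a11 was at 312.5 CPM in Fx, the highest of its 8 values, against 116.9 CPM, so that the Fx level was 2.67 times the other. For Ddit3 the pair was 72.8 against 54.5 CPM, for Asns 316.0 against 211.8 CPM and for Psat1 457.4 against 281.2 CPM. In these 3 genes the library labelled Ko 24 h was thus the lower one, at 0.749, 0.670 and 0.615 times Fx, opposite to the other 3 times. Chac1 was at 50.6 against 100.3 CPM and Trib3 at 105.3 against 85.6 CPM. Atf4 was at 1003 against 1005 CPM, Atf3 at 16.4 against 19.8 CPM, Phgdh at 127.5 against 106.3 CPM and Sesn2 at 72.9 against 63.9 CPM. In 3 of the 10 genes, Atf3, Phgdh and Slc7a11, the 24 h difference had the sign of the mean log2 ratio over the other times, which for Phgdh was close to 0. Each of these values is a single library with no replicate.

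With culture time, Trib3 and Chac1 fell and Psat1 rose between 6 and 72 h. The 72 h level of Trib3 was 0.493 times the 6 h level in Fx and 0.503 times in Ko. For Chac1 the same ratios were 0.376 and 0.505, and for Psat1 they were 1.54 and 1.62. With time as a factor over the 6 libraries, edgeR's quasi-likelihood test gave log2 differences of -1.04 for Trib3 (SE 0.13, adjusted p = 0.00144), -1.24 for Chac1 (SE 0.14, adjusted p = 0.000973) and 0.62 for Psat1 (SE 0.14, adjusted p = 0.0112). These were 3 of the 10 genes, 1 higher and 2 lower, where 41.9% of all genes tested were called, 19.6% higher and 22.3% lower.

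A straight slope on the log2 of time over 7 libraries, all but the one labelled Ko 24 h, called 0 of the 10 genes and 0% of 13208 genes by the same edgeR test. At an unadjusted p under 0.05 it held 2 of the 10, Chac1 with -0.29 log2 units per doubling of time (SE 0.06, adjusted p = 0.110) and Trib3 with -0.24 (SE 0.08, adjusted p = 0.142), where 26.1% of all genes did. DESeq2 called these 2 of the 10, where it called 12.8% of all genes. Without the Ko 48 h library the slope of Chac1 was -0.31 with an edgeR adjusted p of 0.0435.

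Within the Fx series the 24 h library was not on a line between its neighbours. In 7 of the 10 genes, Ddit3, Trib3, Asns, Psat1, Phgdh, Sesn2 and Slc7a11, it held the highest of the 4 Fx values, as it did in 15.1% of 13208 genes. Relative to Fx 6 h, Slc7a11 was 2.86 times, Psat1 1.64 times and Asns 1.49 times as high at 24 h, while Chac1 was 0.485 times as high. This rests on 1 library.

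Whether the slope on time differed between Fx and Ko was tested by an interaction term in edgeR over the 7 libraries. It called 0 of the 10 genes and 0% of all genes tested, and at an unadjusted p under 0.05 it held 0 of the 10 and 1.01% of all genes. DESeq2 called 0 of the 10 and 0.00757% of all genes, a single gene. The estimates ranged from -0.16 log2 units per doubling for Ddit3 (SE 0.12), whose Ko excess was smaller at 72 h, to 0.21 for Slc7a11 (SE 0.35), whose Ko deficit was smaller at 72 h.

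Further genes of the pathway were counted by list. Apart from Gdf15 and Gclm, the genes named from these lists were chosen after their values were seen. Of 24 other ATF4 target genes, 1 was called in the test of genotype alone, a lower one, beside 1.30% of all genes. This was Gdf15, a stress cytokine, at 73.9 ± 19.6 CPM in Fx and 24.3 ± 0.682 CPM in Ko (SD, n = 3), with a log2 difference of -1.61 (SE 0.22, edgeR adjusted p = 0.0171). With culture time as a block, 5 of the 24 were higher and 2 were lower in Ko, beside 11.3% and 11.4% of all genes. The higher ones were Shmt2 (0.57, SE 0.11) of mitochondrial serine use, Aldh18a1 (0.59, SE 0.11) of proline synthesis, Got1 (0.52, SE 0.10), the hormone gene Fgf21 (1.40, SE 0.22) and Stc2 (0.83, SE 0.16), as log2 differences, and the lower ones were Gdf15 and Vegfa. Fgf21 was low, at 2.9 ± 2.3 CPM in Fx and 7.4 ± 4.5 CPM in Ko (SD, n = 3). Stc2 was at 6.7 ± 2.4 and 12.2 ± 5.2 CPM, and in both genes the groups overlapped. The median log2 difference without a block was 0.15 over the list and 0.03 over all genes.

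Of 10 amino acid transporter genes, 0 were called by genotype alone in edgeR, beside 2.22% of all genes, and with the block 2 were higher and 1 was lower, beside 11.3% and 11.4% of all genes. Slc7a5, the large neutral amino acid transporter, was at 298 ± 38.0 CPM in Fx and 450 ± 104 CPM in Ko (SD, n = 3), with a log2 difference of 0.57 (SE 0.11, adjusted p = 0.00943 with the block). The cationic amino acid transporter gene Slc7a3 was higher by 1.15 (SE 0.16), and the glutamine transporter gene Slc38a1 was lower, at -0.96 (SE 0.15). Slc3a2, whose product is the heavy chain that pairs with both xCT and the Slc7a5 product, was at 317 ± 15.4 CPM in Fx and 399 ± 82.8 CPM in Ko and was not called (0.31, SE 0.12, adjusted p = 0.104 with the block).

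The list of 21 genes of tRNA charging held the cytosolic tRNA synthetases and the export factor Xpot. With the block, 1 of the 21, Vars, was higher in Ko (0.50, SE 0.10) and 0 were lower, beside 11.3% and 11.4% of all genes. Between 6 and 72 h, 13 of the 21 rose and 0 fell, beside 19.6% and 22.3% of all genes, with a median log2 difference of 0.59 against -0.01 over all genes. Farsb (1.16, SE 0.15), Tars (1.09, SE 0.16) and Iars (1.03, SE 0.16) were among them.

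Of 10 NRF2 target genes, which answer to oxidative stress and share Slc7a11 as a known target, 0 were higher and 6 were lower in Ko with the block, beside 11.3% and 11.4% of all genes. They were Gclc and Gclm, the subunits of the enzyme that starts glutathione synthesis, with Nqo1, Hmox1, Srxn1 and Me1. Of the 10, Gclc, Gclm and Srxn1 did not overlap between the 3 Fx and 3 Ko libraries, beside 20.0% of all genes. Nqo1, Hmox1 and Me1 overlapped. Gclm was the 1 called by genotype alone, beside 1.30% of all genes lower, at 150 ± 25.2 CPM in Fx and 61.6 ± 11.8 CPM in Ko (SD, n = 3; log2 difference -1.29, SE 0.20, edgeR adjusted p = 0.0254). Nfe2l2, the gene of NRF2 itself, was at 162 ± 15.8 and 147 ± 18.2 CPM and was not called (adjusted p = 0.310 with the block). The median log2 difference without a block was -0.63 over the list.

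**Figure D5:**
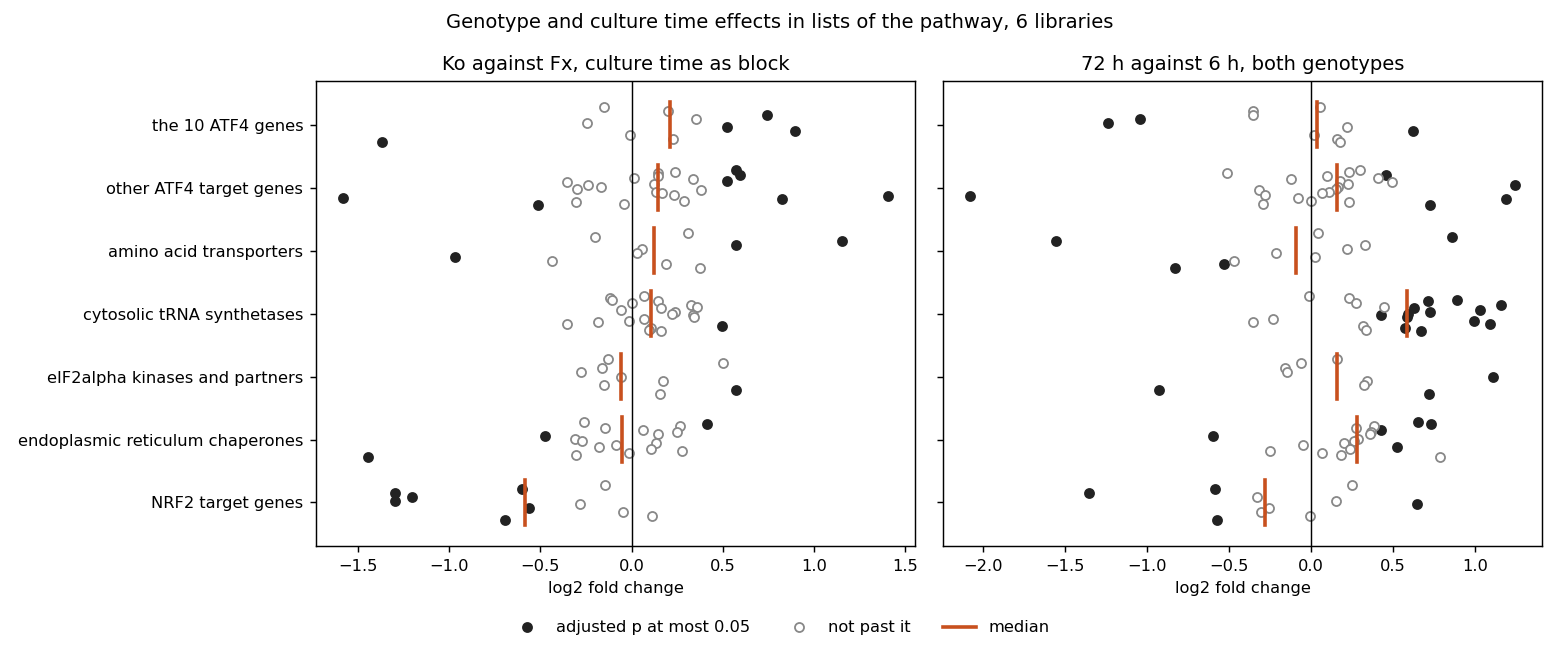
Log2 difference of each gene between Ko and Fx with culture time as a block (left) and between 72 and 6 h (right) for the 10 genes and 6 further lists, 6 libraries; filled points have an adjusted p of at most 0.05, open points do not, and the orange bar is the median of the list. On the left 6 of 10 NRF2 target genes are filled and below 0, and on the right 13 of 21 genes of tRNA charging and export are filled and above 0.

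The likeness of other genes to the 10 was described by their log2 CPM profile over the 8 libraries, scaled to an SD of 1. Among 9540 genes, Wdr73, Stard3nl, Lonp1, Pomt2 and Rpl22l1 lay nearest to the mean profile of the 10 genes, with root mean square distances of 0.365, 0.416, 0.520, 0.540 and 0.588. Lonp1, which codes for a mitochondrial protease, was at 432, 508, 409 and 385 CPM in Fx and at 423, 416, 377 and 470 CPM in Ko at 6, 24, 48 and 72 h. The points share 1 library at each time and genotype, and the library labelled Ko 24 h is among them.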

How the data were processed

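Per the labels, total RNA was made into Illumina TruSeq libraries and sequenced as 50-base single-end reads, whereas the study's methods speak of paired reads. The submitters' processing notes name CASAVA 1.8.2, TopHat2 2.0.8b, HTSeq and mm9. The authors deposited raw counts of reads per gene symbol, without normalization, and the annotation and strand setting are not given in the sources used here. The labels give 6 h where the design text gives another first time, and the labels were followed. The 5 HTSeq summary rows and the lncRNA tables were left out. No 2 libraries held identical counts.

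Counts were scaled by TMM and filtered by edgeR's rule (at least 10 counts, 15 in total). RPKM used exonic lengths of GENCODE M1. Genotype was tested in edgeR 4.0.16 (R 4.3.3) by the quasi-likelihood test over the 6 libraries of 6, 48 and 72 h, the times in the study's methods, without a block because the study names none. A slope on the log2 of culture time, and its interaction with genotype, were tested over 7 libraries. P-values were adjusted by Benjamini-Hochberg over all genes tested. The code was tested on simulated counts. Fx and Ko libraries of the same time deviated together from their group means, with correlations of 0.714, 0.536 and 0.841 over 13121 genes at 6, 48 and 72 h, so that culture time pairs the libraries and the blocked value is given where it changes a call. Alternatives were other sets of libraries, the block, DESeq2 1.42.0 and its size factors, limma 3.58.1, no filter, time in hours or as a factor, and leaving out each library.

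The members and lists were chosen with earlier results of these data known. All 10 genes are named. From other lists, genes with an adjusted p of at most 0.05 by genotype or slope were named, at most 4 per list, with others marked in the text. The 5 most similar genes were taken by profile distance among genes with a mean of at least 10 CPM outside all lists.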

Additional observations from a re-analysis of the deposited data

How the results depend on the processing

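By genotype, 0 of the 10 genes were called without a block, 4 with culture time as a replicate block over 6 libraries, 1 with that replicate block over all 8, 2 by DESeq2 and 0 to 1 when each library was left out (1 without Ko 72 h). Past the study's limit there was 1 gene, and 1 to 2 with a library left out, the added gene being Psat1 without Ko 6 h, Ko 48 h or Fx 72 h. By slope on time there were 0, against 3 for 72 h against 6 h with time as a factor, 2 by DESeq2 and 0 to 1 with a library left out (1 without Ko 48 h). The sign of the genotype difference turned for Chac1 over all 8 libraries (0.065, and 0.063 with the replicate block), with -0.59 to 0.14 when a library was left out. For Phgdh, at 0.01, it turned over 7 libraries (-0.070), over 8 (-0.059), with the block over 6 (-0.0077) or 8 (-0.068), by limma (-0.0080) and without the filter (-0.0074), with -0.10 to 0.16 when a library was left out. The slope turned for Atf4 over 6 libraries (-0.0031), for Phgdh as 72 h against 6 h (0.023) and for Slc7a11 in hours (-0.0056). With a library left out it ranged from -0.023 to 0.021 for Atf4, -0.038 to 0.056 for Asns, -0.070 to 0.0066 for Phgdh, -0.0098 to 0.10 for Sesn2 and -0.015 to 0.26 for Slc7a11. None of these turned values passed the adjusted limit, and the causes were not tested. Over all genes, the genotype calls were 291, against 483 over 7 libraries, 0 over 8 (1336 at an unadjusted p under 0.05), 2981 and 40 with the block over 6 and 8, 873 by DESeq2 and 9 (without Ko 48 h) to 383 (without Ko 72 h) with a library left out. The slope called 0 genes, against 1 over 8 libraries, 16 without the filter, 5500 with time as a factor and up to 1069 with a library left out (without Ko 48 h), and 1693 by DESeq2. Of the alternative values for single genes, 120 of the genotype difference kept their direction and side of the limit, 8 newly passed it and 12 turned sign, and for the slope these counts were 120, 6 and 14. The lowest count of any of the 10 genes in a library was 435 reads, for Atf3.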

Other observations

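The sensors and the endoplasmic reticulum side of the pathway were counted in the same way, by lists chosen with results of these data known, and the genes named below were picked after their values were seen. Of 9 genes for eIF2alpha, its kinases and their partners, 0 were called by genotype alone in edgeR, and with culture time as a block 1 was higher in Ko, Impact, an inhibitor of GCN2 activation (log2 difference 0.57, SE 0.13, adjusted p = 0.0205), and 0 were lower, beside 11.3% and 11.4% of all genes. By genotype alone 2.22% of all genes were called. The kinase genes Eif2ak3 (PERK) and Eif2ak4 (GCN2) were at 41.9 ± 2.44 and 66.1 ± 8.95 CPM in Fx and at 37.7 ± 5.25 and 54.7 ± 7.13 CPM in Ko (SD, n = 3), and neither was called (adjusted p = 0.391 and 0.128 with the block).

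Of 18 endoplasmic reticulum chaperone and sensor genes, 0 were called by genotype alone in edgeR, and with the block 1 was higher and 2 were lower in Ko, beside the same shares of all genes. The higher one was Hsp90b1 (log2 difference 0.41), and the lower ones were Dnajb9 (-0.47) and Ern1 (-1.44, SE 0.23, adjusted p = 0.00496), the gene of the sensor IRE1. Ern1 was at 75.3 ± 11.2 CPM in Fx and 30.7 ± 15.5 CPM in Ko (SD, n = 3). Hspa5, the gene of the chaperone BiP, was at 1268 ± 419 CPM in Fx and 1056 ± 326 CPM in Ko and was not called by genotype (adjusted p = 0.146 with the block), and it rose between 6 and 72 h (0.66, SE 0.14, adjusted p = 0.0102). Between those times 4 of the 18 rose and 1 fell, beside 19.6% and 22.3% of all genes.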
